A study of Homo sapiens with 2 samples.

Results

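PHACTR2 and PLAGL1 lie near each other on the long arm of chromosome 6, with LTV1 and ZC2HC1B between them. The interactions described here are those of TCF3::HLF-HiChIP with at least 1 bin within 10 kb of PHACTR2 or PLAGL1. Of 49245 listed interactions, 135 met this rule. PHACTR2 had 123 of them and PLAGL1 had 32. Of these, 20 counted for both, joining a bin within 10 kb of the one gene to a bin within 10 kb of the other. A single 5-kb bin inside PHACTR2, called the hub bin here, took part in 49, or 36.3% of the 135. The genes and this bin were selected on their numbers of interactions and contact counts in these data, so the values below are descriptions and carry no test.

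The cells were HAL-01, a leukemia cell line with t(17;19), the translocation that joins TCF3 to HLF. They stably expressed Cas9GFP and had lost wild-type TCF3 through an sgRNA, so that an antibody against TCF3 (also called E2A) pulled down the fusion. The knockout cells were grown out as colonies checked for clonal expansion, so the values describe clonal outgrowth of 1 cell line. All samples shared this genotype, no other condition was measured, and the 2 replicates had been merged before interactions were called. No value therefore has a replicate error, and the list of contacts holds no expression by which the labelled cell type could be checked against its markers.

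PHACTR2 encodes a phosphatase and actin regulator, a protein that binds both the catalytic subunit of protein phosphatase 1 and monomeric actin. PLAGL1, also known as ZAC1, encodes a zinc finger transcription factor linked to cell cycle arrest. It is an imprinted gene, transcribed from the paternal chromosome at a differentially methylated promoter that it shares with the noncoding RNA gene HYMAI, and from both chromosomes at a promoter farther upstream. HLF is a basic leucine zipper factor that binds a palindromic site as a dimer, and TCF3::HLF keeps that DNA binding domain. In HiChIP, chromatin is cross-linked, cut, pulled down with an antibody and ligated, so that a read pair joins DNA segments that lay close together in the nucleus.

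PHACTR2 lies on the plus strand of hg38 at chr6:143536845-143831185 (294.34 kb, 12 transcripts in GENCODE). PLAGL1 lies on the minus strand at chr6:143940300-144064599 (124.3 kb, 27 transcripts), and 109.11 kb separates the genes. The hub bin, chr6:143575001-143580000, contains 0 exons of PHACTR2. Only 1 PHACTR2 transcript spans it, and the bin falls in the first intron of that transcript (143537208 to 143712015). Below, positions are given in kb from the hub bin, with minus signs toward the start of the chromosome (left) and plain numbers toward PLAGL1 (right).

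The HLF motif was searched as exact TTACGTAA or TTATGTAA on both strands, and the hub bin held 2 copies. The second 8-mer is not its own reverse complement, so it has a strand, while the first reads the same on both. The 2 hub copies are shown with 50 bases on each side because every hub interaction carries them, with the motif in capitals. The left copy is on the minus strand (chr6:143575278-143575385) and the right copy on the plus strand (chr6:143577413-143577520), both in the intron.
Hub bin, left copy: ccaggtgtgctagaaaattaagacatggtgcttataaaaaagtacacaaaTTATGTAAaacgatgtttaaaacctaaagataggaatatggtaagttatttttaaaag
Hub bin, right copy: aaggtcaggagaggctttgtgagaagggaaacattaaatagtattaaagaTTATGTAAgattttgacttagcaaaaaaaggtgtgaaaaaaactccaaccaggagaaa

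Copies in the other PHACTR2 anchors with at least 10 interactions are shown with 15 bases on each side. The first lies before PHACTR2 in the bin at -50 kb (chr6:143529434-143529471, minus strand), in no named protein-coding or long noncoding RNA gene. The others lie in introns of PHACTR2 in the bin at 225 kb (chr6:143800112-143800149, plus strand, and chr6:143803185-143803222, minus strand).
Bin at -50 kb: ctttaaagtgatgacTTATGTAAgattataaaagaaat
Bin at 225 kb, left copy: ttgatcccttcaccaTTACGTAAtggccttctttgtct
Bin at 225 kb, right copy: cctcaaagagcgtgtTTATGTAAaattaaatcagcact

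The strongest interaction of the hub ended in a PLAGL1 bin at 435 kb that held 0 copies, but the merged group around that bin held 4. They are shown because this group covers PLAGL1 start sites and that of HYMAI. The bin at 425 kb carried 3 of them, at chr6:144000178-144000215, chr6:144000336-144000373 and chr6:144002088-144002125. These 3 lie 5.124 to 7.034 kb from the nearest annotated start, that of ENSG00000276680. The bin at 430 kb carried the other at chr6:144009036-144009073, 0.228 kb from the nearest PLAGL1 start. All 4 are outside annotated exons and are written as the plus strand.
Bin at 425 kb, first copy: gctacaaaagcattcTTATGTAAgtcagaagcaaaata
Bin at 425 kb, second copy: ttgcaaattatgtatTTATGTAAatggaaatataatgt
Bin at 425 kb, last copy: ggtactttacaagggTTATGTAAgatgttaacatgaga
Bin at 430 kb: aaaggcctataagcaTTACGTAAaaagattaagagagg

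A motif of this length is common at 5-kb resolution. Over the genome, 30.6% of 582267 bins held an exact copy, and over all 53535 anchor bins of the list the share was 31.5%. Among the 49 partner bins of the hub it was 16 of 49, or 32.7% (95% Wilson interval, 21.2 to 46.6), near both backgrounds. All 49 hub interactions had the motif in at least 1 bin because the hub bin has it, and 16 had it in both. A copy was present in 8 of the 17 left partners and 8 of the 32 right partners. None of the 7 partners in the PLAGL1 region had an exact copy in the bin itself. Within the PHACTR2 region, 11 of 36 anchor bins and 19 of all 64 bins had a copy, and within the PLAGL1 region 1 of 17 anchor bins and 5 of all 29. A match describes the letters of the reference sequence and not a bound site, and bins of 5 kb do not tell which copy lay at the ligated DNA.

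Contact counts are numbers of read pairs that join both bins of an interaction. Over the list they ranged from 7 to 615 with a median of 24, for which the exact Poisson 95% interval is 15.4 to 35.7. Their sum is 1268490, which covers significant interactions only, and the 135 interactions of PHACTR2 or PLAGL1 hold 0.325% of them. Intervals of this kind cover counting error only, and are too narrow where duplicate read pairs were kept, as here. Since contact counts fall with distance, each count was also divided by the median of all listed interactions at the same distance, here called the ratio to the distance median. The bins of an interaction can also seem joined where their sequences are alike. Of the 135, 108 shared no 31-mer between their bins and the largest number shared was 93.

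The hub bin stood out by its number of partners. Its 49 interactions had rank 4 among 53535 anchor bins, of which 2.1% had 10 or more. The bins with more were on chromosome 18 (65 interactions, in no named protein-coding or long noncoding RNA gene) and on chromosome 8 (51 in SNTG1 and 50 in CCDC26). The next below had 44. Around the hub bin the list was nearly empty. The bins at -15, -10 and -5 kb had 1, 1 and 0 interactions, and those at 5, 10 and 15 kb had 1, 2 and 0. FitHiChIP, the caller, merges neighboring significant bin pairs and lists representative pairs, so a neighbor can be significant without a line of its own. Of 10 merged groups with the hub bin, 3 reached a neighboring bin on the hub side, and pooling the hub bin with the bin on each side gave 50 interactions.

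**Figure D1:**
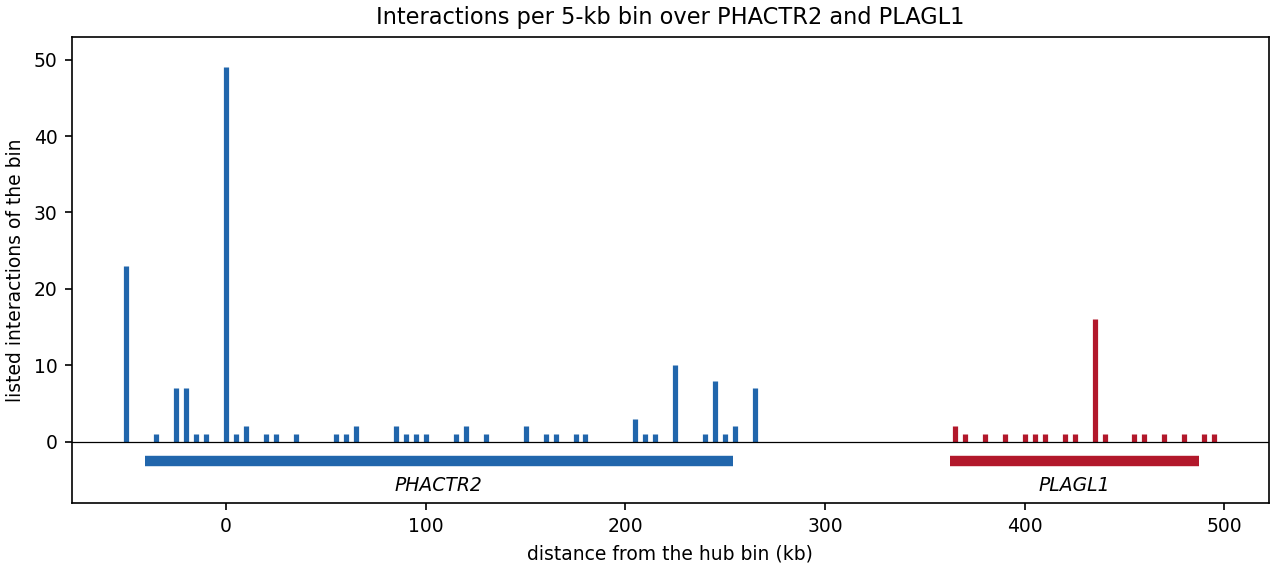
The number of listed interactions of each 5-kb bin (vertical lines) is plotted against its distance from the hub bin in kb, for the bins within 10 kb of PHACTR2 (blue) and PLAGL1 (red), with horizontal bars for the genes. The hub bin reached 49, the bin at -50 kb reached 23 and the PLAGL1 bin at 435 kb reached 16, while most other anchor bins had 1.

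Within the PHACTR2 region, 36 of 64 bins were anchors, 3 of them had 10 or more interactions and 22 had only 1, as did 78% of all anchor bins. Within the PLAGL1 region, 17 of 29 bins were anchors, 1 had 10 or more and 15 had only 1. Both genes thus had a large part of their interactions in a few bins. Both ends lay inside the same region for 25 interactions of PHACTR2 and 1 of PLAGL1. PHACTR2 ranked first of 19970 protein-coding genes by interactions within 10 kb, ahead of BABAM2 with 109, and PLAGL1 ranked 247. The median gene had 1 and 35.5% had none. Per 100 kb of gene and flanks, PHACTR2 had 39.1 interactions (rank 174) and PLAGL1 22.2 (rank 665), against a median of 2.23. The count depends on the margin around the genes. With gene bodies alone 119 interactions met the rule, and with 50 kb around them 147 did. The q-values of hub interactions came close to the caller's threshold of 0.01 at the weak end: the interaction with the PHACTR2 bin at 250 kb had 17 contacts and a q-value of 0.00904. Interactions past that threshold are not in the list.

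The strongest interaction joined the hub bin to the PLAGL1 bin at 435 kb (chr6:144010001-144015000). It had 260 contacts (Poisson 95% interval, 229 to 294) where the median at this distance was 22.5, a ratio of 11.6. Its q-value in the deposited list was 1.36e-304. By contact count it ranked sixth in the list and first among 3271 interactions on chromosome 6. Among 16470 interactions at its distance or farther it ranked second. It held 14.1% of the 1838 contacts of the hub and 3.47 times those of the next hub interaction. The next had 75 (59.0 to 94.0).

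The PLAGL1 bin at 435 kb contained no PLAGL1 exon, lay within 10 PLAGL1 transcripts and began 1.178 kb from the nearest PLAGL1 start. Its neighbor at 430 kb carried 13 PLAGL1 transcript starts (144007347 to 144008823) and the HYMAI start at 144008262, and had no line of its own in the list. The merged group of the strongest interaction ran over the hub bin and its left neighbor and over 6 PLAGL1 bins from 420 to 445 kb (chr6:143995001-144025000), so it covered these starts. Of its 12 bin pairs, 7 were significant, with 579 contacts in sum.

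PLAGL1 received 7 partners of the hub. Their contact counts were 37 at 365 kb, 39 at 380 kb, 16 at 405 kb, 48 at 420 kb, 260 at 435 kb, 75 at 455 kb and 41 at 490 kb. All but the bin at 405 kb lay above the distance median, with ratios from 1.61 to 11.6, and that bin had a ratio of 0.70. The 7 together held 516 contacts, or 28.1% of those of the hub. The bin at 490 kb lay 0.402 kb beyond the farthest upstream PLAGL1 start (144064599), where 10 transcripts begin in the bin at 485 kb. A second merged group ran from 350 to 390 kb (chr6:143925001-143970000) with 9 of 9 bin pairs significant and 286 contacts in sum, and contained 4 downstream PLAGL1 starts. None of the 4 bins with PLAGL1 starts was itself listed as a hub partner.

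**Figure D2:**
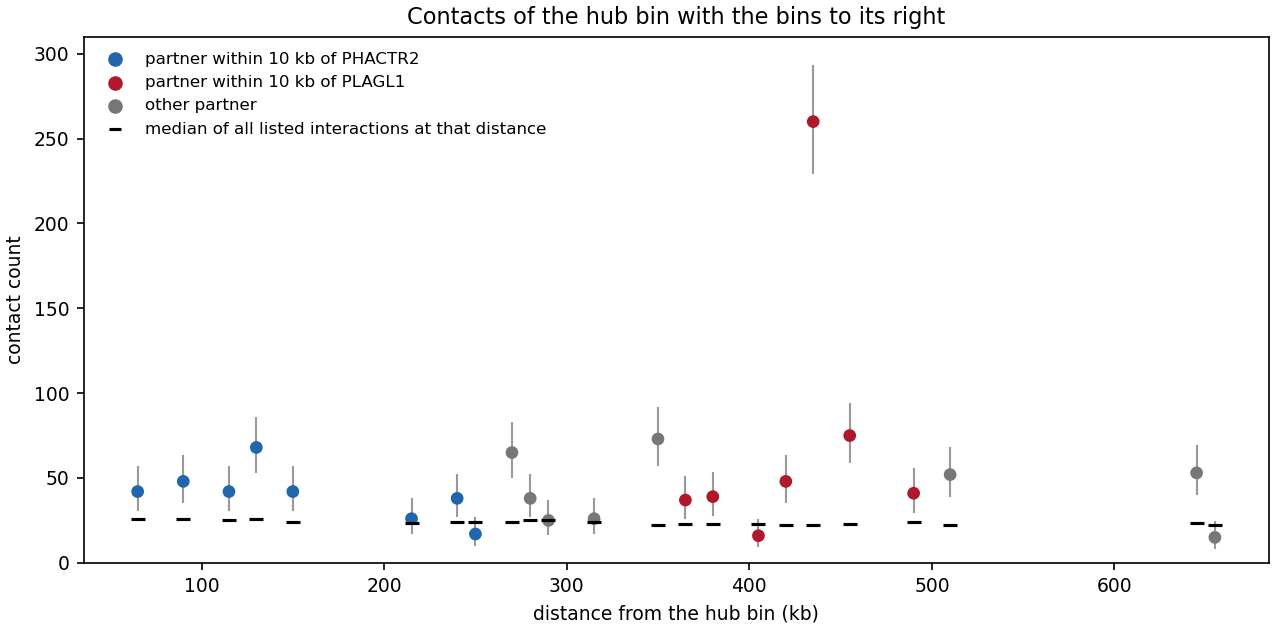
Contact counts of the hub bin (points) with exact Poisson 95% intervals (bars) are plotted against distance in kb for partners to its right within 700 kb, colored by gene region, with a dash for the median of all listed interactions at each distance. The bin at 435 kb in PLAGL1, at 260 contacts, lies above all others, whose highest value was 75.

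The hub reached to both sides, with more contacts toward PLAGL1. To the right it had 32 partners and 1398 contacts, with a median of 37.5 contacts per partner, a median ratio to the distance median of 1.55 (range, 0.68 to 11.6) and 17 partners at a ratio of 1.5 or more. To the left it had 17 partners and 440 contacts, with a median of 24, a median ratio of 1.05 (range, 0.76 to 1.77) and 2 at 1.5 or more. The farthest partners lay 1585 kb to the right and 1780 kb to the left. The left partners above 1.5 were the bins at -60 and -1025 kb. They had 45 contacts (32.8 to 60.2) and 39 (27.7 to 53.3), at ratios of 1.67 and 1.77. Neither lay in a named protein-coding or long noncoding RNA gene. Left partners were thus mostly close to the typical listed interaction at their distance, and the partners above 1.5 on the right lay no farther than 645 kb.

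By region, 8 partners in PHACTR2 itself held 323 contacts (17.6%; 17 to 68 each), 5 between the genes held 227 (12.4%; 25 to 73 each), and 12 beyond PLAGL1 held 332 (18.1%; 14 to 53 each). The 17 before PHACTR2 held 440 (23.9%; 18 to 45 each). The median ratio was 1.65 in PHACTR2, 1.52 between the genes, 1.71 in PLAGL1, 1.13 beyond PLAGL1 and 1.05 before PHACTR2. The ranges overlapped between all 5 regions, with 0.71 to 2.62 in PHACTR2 and 1.00 to 3.32 between the genes.

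**Figure D3:**
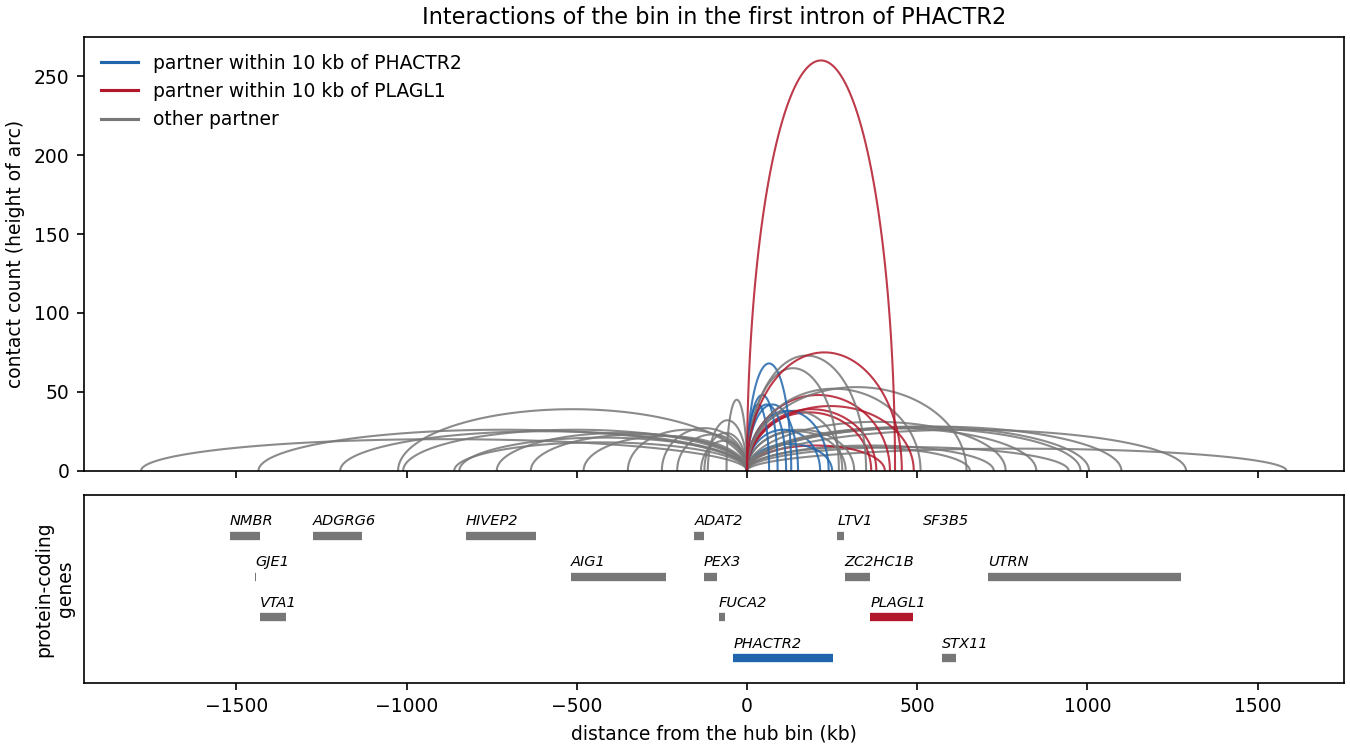
Each arc is 1 of the 49 interactions of the hub bin, with its height giving the contact count and its foot the distance of the partner in kb, above bars for the named protein-coding genes. The tallest arc, at 260 contacts, ends in PLAGL1 and exceeds the next, at 75, by 3.47 times.

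Inside PHACTR2, the hub met the bins at 65, 90, 115, 130, 150, 215, 240 and 250 kb with 42, 48, 42, 68, 42, 26, 38 and 17 contacts. The highest of these, at 130 kb (68; 52.8 to 86.2), overlapped no annotated start site. PHACTR2 transcripts start in 5 bins. The start of the longest transcript lies at -40 kb, 2 transcripts start in the bin at 30 kb and 7 in the bin at 100 kb. Of the 5 bins 1 was an anchor, and 0 were listed partners of the hub. The bins at -40 and 30 kb lie closer to the hub than the 50 kb at which calling began, so the list cannot show contacts between them and the hub.

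Between the genes and beyond PLAGL1, 4 further partners had more than 50 contacts. The bin at 270 kb, in LTV1, which encodes a factor for assembly of the small ribosomal subunit, had 65 contacts (50.2 to 82.8; ratio, 2.71), and its merged group reached the LTV1 start with 149 contacts in sum. The bin at 350 kb in ZC2HC1B had 73 (57.2 to 91.8; ratio, 3.32). The bin at 645 kb had 53 (39.7 to 69.3), at a ratio of 2.26, and lay in no named protein-coding or long noncoding RNA gene. The bin at 510 kb, with 52 contacts (38.8 to 68.2; ratio, 2.36), belonged to a merged group that covered the start of SF3B5, a subunit of a splicing complex.

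Beyond these, UTRN received 7 partners from 725 to 1100 kb. Their contact counts were 16, 31, 27, 15, 27, 28 and 28 in order of distance, at ratios from 0.70 to 1.35, so none reached 1.5. STX11, a syntaxin gene that lies between PLAGL1 and UTRN, received none.

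An annotated transcript start lay in 19.4% of all anchor bins. The partner bins were near that share, as 7 of 49, or 14.3% (95% Wilson interval, 7.10 to 26.7), held such starts. They belonged to HIVEP2, a zinc finger DNA-binding protein (-635 kb, 23 contacts), to ENSG00000225752 (-480 kb, 22) and ENSG00000216642 (-250 kb, 27), both within AIG1, to ADAT2, the catalytic subunit of a tRNA adenosine deaminase (-135 kb, 19), to ADAT2 with PEX3, a peroxisome biogenesis gene (-125 kb, 24), to ENSG00000270890 and ENSG00000280148 at LTV1 (280 kb, 38), and to UTRN, which encodes the dystrophin relative utrophin (1005 kb, 28). Of these 7, the bin at 280 kb had a ratio of 1.52 and the others lay between 0.76 and 1.13. The share depended on what counted as a start: 4 bins remained with protein-coding transcripts, and 23 had a start within 10 kb.

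Of the 49 partners, 31 (63.3%) had no other interaction than that with the hub, and 3 (6.12%) had 10 or more. The 3 were the HIVEP2 bin at -635 kb with 12, the PLAGL1 bin at 435 kb with 16 and the UTRN bin at 760 kb with 10. Over all anchor bins, 78% had only 1 interaction and 2.1% had 10 or more. A bin with more interactions has more chances to be a partner, so all anchor bins are not a matched background for these shares. Of 1129 pairs of partner bins at a distance that was called, 3 (0.266%) were listed as interacting with each other. Across the 12 anchor bins with the most interactions, this share ran from 0% to 0.627%. The 3 bins with more interactions than the hub had 0 to 2 such pairs. These bins had median ratios from 1.04 to 1.33, against 1.21 for the hub, and held 4.15% to 7.41% of their contacts in their top partner, against 14.1%. Among the 12 anchor bins with the most interactions, only the bin at 25990001 on chromosome 2, with 19.9%, held a larger share in 1 partner.

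Apart from the hub, the bin at -50 kb had the most interactions of the PHACTR2 region, 23 in number (rank 67), with 643 contacts. Its motif lies 7.396 kb before the start of PHACTR2. Its highest count was 62 (47.5 to 79.5), with PEX3 at -100 kb, followed by 42 at 60 kb and 40 at 165 kb in PHACTR2. In PLAGL1 it met the bins at 410, 425, 470 and 480 kb with 18, 22, 27 and 18 contacts, at ratios from 0.78 to 1.15. Its contacts with PLAGL1 were thus near the median of listed interactions at their distance, all of which had passed the caller's threshold. It shared 4 partner bins with the hub, 17.4% of its own and 8.16% of those of the hub. The bin at -55 kb shared 3, the bins at -20, 225 and 435 kb shared 2 each, and no other anchor shared more than 1.

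The bin at 225 kb had 10 interactions, with 13 to 64 contacts and a median ratio of 0.97. Its strongest, at 64 contacts (49.3 to 81.7; ratio, 2.56), ran to the bin at -55 kb, past the hub. The bin at 245 kb had 8 interactions and each of the bins at -25 and -20 kb had 7, at median ratios of 1.15, 1.00 and 0.96. The bins at -25 and -20 kb overlap PHACTR2-AS1, a noncoding gene antisense to PHACTR2, whose starts lie at -15 kb in a bin with 1 interaction. The bin at 265 kb holds the LTV1 start and had 7 interactions. The strongest of them, 72 contacts (56.3 to 90.7; ratio, 3.00), ended in PLAGL1 at 460 kb and was the highest count without the hub.

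The PLAGL1 bin at 435 kb had 16 interactions (rank 218), 14 to the left and 2 to the right. Besides the 260 contacts with the hub, the highest counts were 49 (36.3 to 64.8; ratio, 2.04) with the PHACTR2 bin at 120 kb, and 38 each (26.9 to 52.2; ratio, 1.65) with the PHACTR2 bins at 10 and 20 kb, on the right of the hub. Counts with the start bin of FUCA2 (a fucosidase gene) at -65 kb and with ADAT2 at -145 kb were 28 and 29, at ratios of 1.22 and 1.21. The farthest partner, at 2380 kb, holds a start of SHPRH, a helicase gene, with 33 contacts, where only 6 interactions share the distance. The remaining interactions of this bin had 15 to 33 contacts.

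Over all 135 interactions, the median ratio to the distance median was 1.11 (order-statistic 95% interval, 1.04 to 1.21), and 33 (24.4%) had a ratio of 1.5 or more, against 12.6% of all listed interactions. The hub had a median of 1.21 (1.08 to 1.58) and 19 of 49 (38.8%). Across the 12 anchor bins with the most interactions, the share at 1.5 or more ran from 24% to 47.5%. Without the hub, PHACTR2 had a median of 1.05 (0.94 to 1.19) and 13 of 74 (17.6%), and PLAGL1 a median of 1.10 (0.85 to 1.24) and 5 of 25. The median of the whole list was 1. Interactions of 1 merged list are not replicates, so these intervals are descriptions and carry no test. The 20 interactions with a bin within 10 kb of each gene had a median of 1.42 (0.88 to 1.71), with 10 of 20 at 1.5 or more. The 13 among them without the hub had 4.

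**Figure D4:**
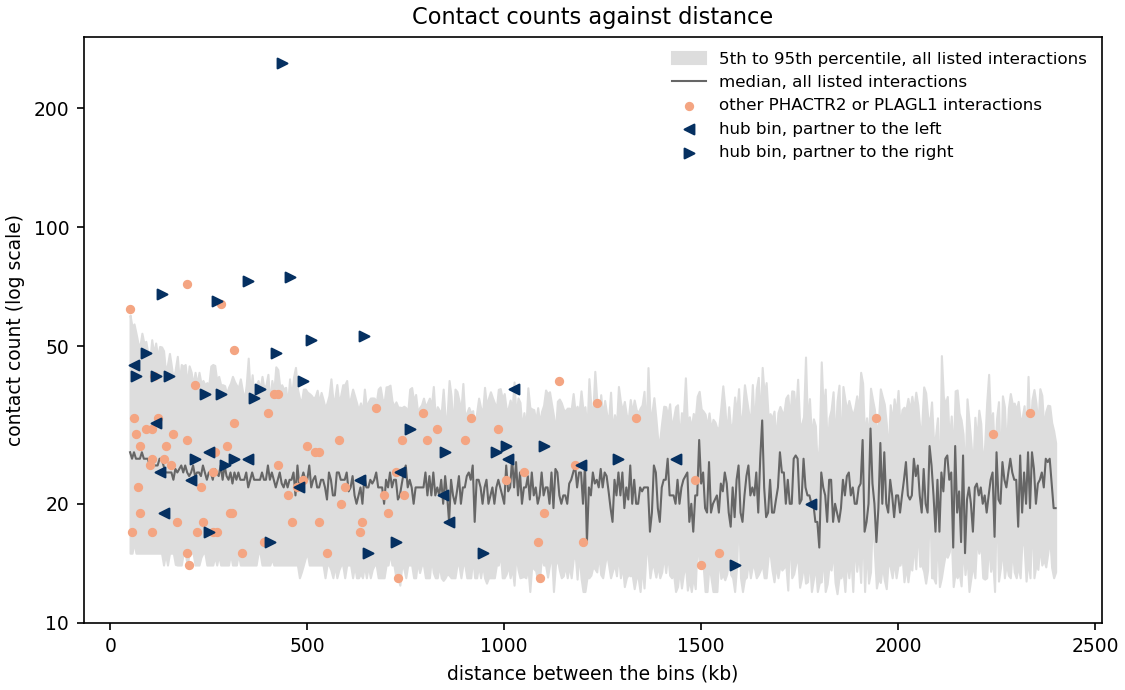
Contact count (log scale) is plotted against the distance between the bins in kb for the hub bin (triangles pointing to the side of the partner) and the other interactions of PHACTR2 or PLAGL1 (orange), over the median (line) and the 5th to 95th percentiles (gray) of all listed interactions. Right-pointing triangles reach 260 contacts while left-pointing triangles stay between 18 and 45.

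Other properties of the interactions followed the hub in part. Interactions that belonged to a merged group of more than 1 bin pair were 13 of 49 for the hub (26.5%), in 10 groups, against 7.69% of the list. They were 3 of the 74 other PHACTR2 interactions (4.05%). All 13 of the hub lay to its right. Among the 12 anchor bins with the most interactions, the share of interactions in merged groups ran from 10.5% to 33.3%. A q-value under 1e-05 was given for 38 hub interactions (77.6%) and 90 of 135 in all (66.7%), against 66.5%. Distances over 1 Mb made up 9 hub interactions (18.4%) and 25 of 135 (18.5%), against 13.7%. The motif in at least 1 bin was found in 100 of the 135 (74.1%), against 66.8% of the list, and 49 of the 100 were those of the hub. Without the hub the share was 62.2% for PHACTR2 and 12 of 25 for PLAGL1.

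PHACTR2 was selected on its number of interactions and ranked first, so every other protein-coding gene had fewer. The relatives and partners of both genes are therefore set beside the median protein-coding gene, which had 1, with 35.5% having none. In the family of phosphatase and actin regulators, PHACTR1 had 77 (rank 18 among protein-coding genes), spread over bins of at most 11, while PHACTR3 and PHACTR4 had 3 each. The catalytic subunits of protein phosphatase 1, PPP1CA, PPP1CB and PPP1CC, had 1 each. Among genes of the actin and serum response factor pathway, MRTFA had 8, MRTFB, ACTB and ACTG1 had 3 each, and SRF had none. In the family of PLAGL1, PLAG1 had 1 and PLAGL2 had none. These are numbers of interactions within 10 kb and grow with the length of the gene.

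Of 20 imprinted genes, 14 had an interaction, with a median of 1. This was near the level of all protein-coding genes, whose median was also 1 and of which 35.5% had none. GRB10, an adaptor of growth factor receptors, had 34, with at most 54 contacts and a median ratio of 0.92, followed by PLAGL1 with 32. HYMAI, which lies within PLAGL1, had 19 in the same bins, including the interaction of 260 contacts. The others had 5 or fewer, with KCNQ1OT1 at 5 and SGCE at 3, and IGF2, H19, PEG3, PEG10, MAGEL2 and DIRAS3 had none. The list does not separate the parental chromosomes, so the contacts of PLAGL1 could not be assigned to its expressed or silent copy.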

How the data were processed

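HiChIP with anti-TCF3 was done in 2 biological replicates of TCF3-KO HAL-01 cells. The authors trimmed reads (TrimGalore 0.6.6), merged the replicates, aligned to hg38 with BWA-MEM, parsed pairs with pairtools without removing duplicates, called MACS2 peaks as reference and called interactions with FitHiChIP (version not given in the sources used here) in 5-kb bins at distances of 50 kb to 3 Mb and a q-value under 0.01, then merged nearby contacts. The deposited contact counts are raw numbers of read pairs. The deposited p-values and q-values come from FitHiChIP's bias-corrected background, and the deposited fraction tells how large a share of a merged group's bin pairs were significant. Coverage per bin was not used here.

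Interactions were assigned to GENCODE release 44 genes by overlap of a bin with the gene body and 10 kb around it. Contact counts have exact Poisson intervals, shares Wilson intervals and medians binomial order-statistic intervals, all at 95%. No test between groups was possible with 1 merged list. Motifs and shared 31-mers were read from hg38. Tested on simulated data, 40 of 40 planted hub interactions and 200 of 200 planted motifs were recovered. Named genes were PHACTR2, PLAGL1, the listed families, genes with a start site in a bin described, and the genes of the anchors sharing most partners with the hub. SF3B5, SNTG1, CCDC26 and BABAM2 were named after their values were seen. The members and lists were chosen with earlier results of these data known. Alternatives were stricter q-values, a contact minimum of 20, distances up to 1 Mb, other gene margins, merged bin ranges, other distance medians, sumCC (contacts summed over a merged group) and other definitions of motif and start site. The tools were samtools 1.23.1, Python 3.11.15, scipy 1.17.1, pandas 2.3.3, matplotlib 3.10.9, numpy 2.4.6 and pyfaidx 0.9.0.4.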

Additional observations from a re-analysis of the deposited data

How the results depend on the processing

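Across 34 alternative settings, 31 gave a count within 1.5 times that reported, or a median or share within its 95% interval, and 3 did not. The share of hub partners with an exact HLF motif was 32.7% in the 5-kb bins and 49.0% over the merged bin ranges, which are longer. The number of hub partner bins with a start site was 7, fell to 4 with protein-coding transcripts only and was 23 with starts within 10 kb of the bin. Under the stricter q-value of 1e-05, the interactions of either gene and of PHACTR2 were lowest, at 90 and 82. Across all settings the interactions of either gene numbered 90 to 147, those of PHACTR2 82 to 137, those of PLAGL1 22 to 41 and those of the hub bin 38 to 50. The median ratio of the hub lay between 1.21 and 1.24, and that of PLAGL1 between 1.20 and 1.21. No paired analysis was possible because the replicates were merged into 1 list before deposit, and for the same reason neither replicate could be left out. The depth limits weak interactions most: a count of 24 has a counting interval of 15.4 to 35.7, so ratios near 1 have no order among themselves.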
